A study of Mus with 4 samples.

Results

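Vascular smooth muscle cells (VSMCs) of the mouse dorsal root ganglion (DRG) were picked out of single-cell RNA counts by a gate on smooth muscle genes. A barcode counted as a VSMC when it held more than 500 genes, under 20% mitochondrial UMIs (unique molecular identifiers, 1 per captured RNA molecule), at least 10 UMIs of Acta2, at least 5 of Tagln, at least 1 of Myh11, fewer than 3 of the endothelial gene Flt1 and fewer than 20 of the neuronal genes Snap25, Uchl1 and Tubb3 together. The gate took 582 of 35113 kept cells. Left L4-5 DRGs were taken from wildtype male C57BL/6J mice of 6 to 8 weeks, either 3 days after chronic constriction injury (CCI) of the left sciatic nerve with chromic gut ligatures or without surgery (naive, CON). There were 2 libraries per group, and how many mice went into each library is not stated. The VSMCs numbered 226 and 146 in CCI replicates 1 and 2, against 173 and 37 in CON replicates 1 and 2. Nothing says that the libraries came from separate animals, so a p-value sets a difference only against the spread of these 4 libraries, which may be technical.

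Smooth muscle cells wrap arteries, arterioles and larger venules and set vessel calibre by contracting. Calcium entering through voltage-gated channels activates calmodulin and myosin light chain kinase, which phosphorylates the regulatory light chain of smooth muscle myosin, and the transcription cofactor myocardin drives the genes of this apparatus together with serum response factor. Pericytes are their mural neighbours on capillaries. They share PDGF receptor beta and Notch3 with VSMCs but carry little contractile protein and have an ATP-sensitive potassium channel built of Kcnj8 and Abcc9.

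The VSMCs were compared with 392 pericytes, gated as at least 3 Rgs5 UMIs and no Myh11 UMI, with the same limits on Flt1 and on neuronal genes. Pericytes numbered 109 and 129 in the CCI libraries, against 134 and 20 in the CON libraries. The median VSMC held 4449 and 4981 UMIs in the CCI libraries, against 2882 and 7710 in the CON libraries. Depth thus differed most between the CON libraries, and CON replicate 2 rested on the fewest cells. The medians of pericytes were lower in each library, between 1897 and 4629 UMIs. Mitochondrial UMIs made up a median of 6.64 to 7.92% of a VSMC's counts, against 3.42 to 4.83% in pericytes. All levels below are CPM: the UMIs of a gene, summed over the cells of a type in a library, as a share of all non-mitochondrial UMIs of those cells and scaled to a total of 1000000. Summed VSMC counts were 956320 and 777006 in the CCI libraries, against 501160 and 276510 in the CON libraries. The barcodes shared by a pair of libraries numbered 8 to 29 among kept cells, and 1 VSMC barcode was shared, between CCI replicate 1 and CON replicate 1.

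Near the gate, 3 and 3 VSMCs in the CCI libraries had 10 to 12 Acta2 UMIs, against 18 and 3 in the CON libraries. Barcodes with 7 to 9 Acta2 UMIs that met every other condition numbered 4 and 6 in the CCI libraries, against 13 and 2 in the CON libraries. The cells were selected on their UMIs of Acta2, Tagln and Myh11, so the levels of these genes describe the choice and are no result. Acta2, smooth muscle alpha-actin, had 11159 and 9211 CPM in CCI VSMCs, against 7977 and 12824 CPM in CON VSMCs. Myh11, the smooth muscle myosin heavy chain, had 3142 and 2905 CPM in CCI VSMCs, against 3075 and 3425 CPM in CON VSMCs, and no UMI in any pericyte, as the gate required. In the other kept cells Acta2 lay between 2.69 and 36.6 CPM.

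Markers that the gate did not use were as follows. Tpm2, the muscle beta-tropomyosin, had 4995, 4199, 3049 and 5002 CPM in VSMCs of CCI replicates 1 and 2 and CON replicates 1 and 2, against 696, 407, 364 and 464 CPM in pericytes of the same libraries. Every VSMC sum lay above every pericyte sum. Summed markers of endothelium (10 genes), macrophages and other immune cells (10) and neutrophils (6) lay between 14.5 and 243 CPM in VSMCs. Cldn5, the endothelial tight junction protein, had 2.0 to 32.2 CPM in VSMCs, against 94.8 to 213 CPM in the other kept cells, and Ptprc, the pan-leukocyte phosphatase, had 0.0 to 3.99 CPM in VSMCs. Markers of glia, neurons and red cells were present, and they varied by library. The summed level of 10 satellite glia markers, all of them with UMIs in each library, was 5201 and 19252 CPM in CCI VSMCs, against 13020 and 10274 CPM in CON VSMCs. This sum is not specific to glia. It includes Sparcl1, which was itself higher in VSMCs than in pericytes and had a mean of 2748 CPM over the 4 VSMC libraries. The sum of 14 neuron markers, of which 14, 14, 14 and 9 had UMIs in CCI replicates 1 and 2 and CON replicates 1 and 2, was 6179 and 3229 CPM in CCI VSMCs, against 10332 and 434 CPM in CON VSMCs. Fibroblast markers were high in 1 library, with a sum over 10 genes of 127 and 2959 CPM in CCI VSMCs, against 307 and 36.2 CPM in CON VSMCs. The sum of 5 erythrocyte markers was 682 and 134 CPM in CCI VSMCs, against 6814 and 36.2 CPM in CON VSMCs. Glial and fibroblast counts were uneven over barcodes. In CON replicate 2, 1 VSMC held 1505 of 1698 Apoe UMIs, and the median VSMC held 3. In CCI replicate 2, 15 of 146 VSMCs held Dcn UMIs, and 1 of them held 325 of 600. The neuronal gene Calca was more widespread, found in 96.0 and 88.4% of CCI VSMCs and 97.7 and 29.7% of CON VSMCs. The label of vascular smooth muscle thus fitted the contractile markers. RNA of other ganglion cells lay beside them, unevenly over barcodes and libraries.

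**Figure D1:**
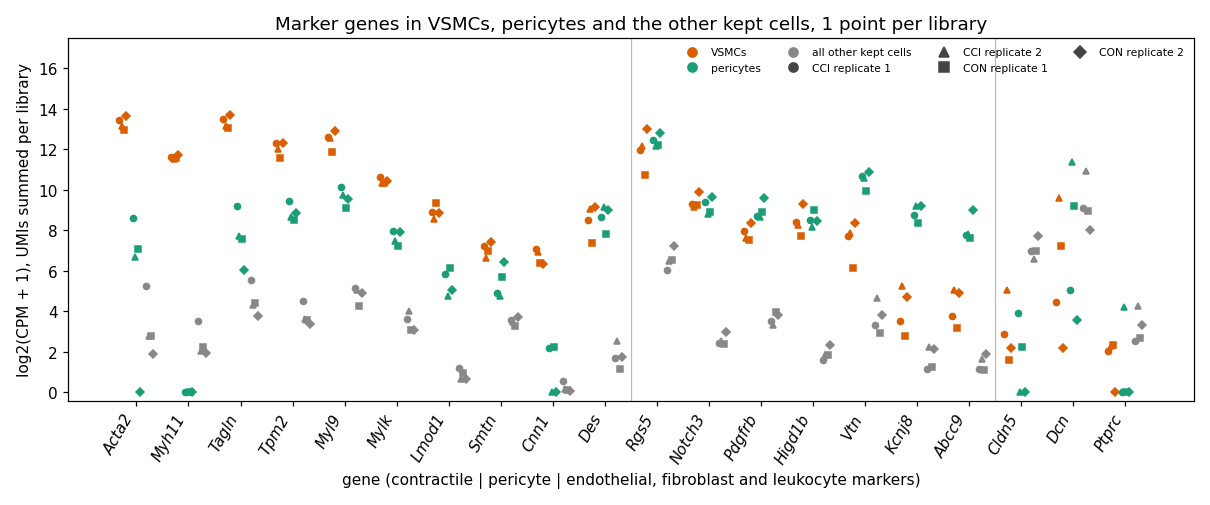
Levels of marker genes, as log2(CPM + 1) on the vertical axis, in VSMCs (orange), pericytes (green) and all other kept cells (grey), with 1 point per library and the marker shape giving the library. The contractile genes from Acta2 to Cnn1 sit higher in VSMCs than in pericytes in every library, Des, Rgs5, Notch3 and Higd1b overlap, and Vtn, Kcnj8 and Abcc9 sit lower in VSMCs.

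Because the gate divides the cells by the same counts, the profile of VSMCs against pericytes is a description without a test. Of 8109 genes with at least 50 UMIs over both cell types, 239 (2.95%) were at least 2-fold higher in VSMCs in all 4 libraries and 174 (2.15%) were at least 2-fold lower. Log2 ratios between the cell types carry an added prior count and are given as mean ± SD over the 4 libraries. Apart from the 15 genes at each end of this ranking and the most abundant members of each list, the genes named in the profile were picked after their values were seen.

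Genes of the contractile apparatus were the most uniform group. Of 22 measured members outside the gate, 17 were 2-fold higher in VSMCs in all 4 libraries and none was 2-fold lower, with a median log2 ratio of 2.78, against -0.09 over all genes. The regulatory light chain gene Myl9 had a log2 ratio of 2.84 ± 0.39 and Mylk, which encodes the kinase that phosphorylates it, 2.79 ± 0.27. Mylk had 1562 and 1288 CPM in CCI VSMCs and 1299 and 1385 CPM in CON VSMCs, against 248, 176, 147 and 237 CPM in pericytes of those libraries. Ppp1r12b, a targeting subunit of myosin phosphatase, had a log2 ratio of 3.50 ± 0.41, and Ppp1r14a, a phosphatase inhibitor, 2.77 ± 0.48. RNA of the kinase, of a phosphatase targeting subunit and of a phosphatase inhibitor was thus higher in VSMCs. The actin-binding proteins Cnn1 and Lmod1 differed by 4.85 ± 1.43 and 3.41 ± 0.39. Cnn1 (calponin) was low even in VSMCs, at 133 and 120 CPM in the CCI libraries and 81.8 and 79.6 CPM in the CON libraries, with 2 UMIs in all pericytes together. Des, the intermediate filament protein desmin, was an exception in this group, with a log2 ratio of -0.14 ± 0.24. It had 360, 533, 168 and 571 CPM in VSMCs of CCI replicates 1 and 2 and CON replicates 1 and 2. Pericytes of those libraries had 405, 560, 228 and 518 CPM.

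Pln had the largest mean log2 ratio of the genes outside the gate, 6.60 ± 0.63. It encodes phospholamban, an inhibitor of the calcium pump of the sarcoplasmic reticulum, and lies on chromosome 10 at 53337686 to 53345999 (GRCm38). It had 613 and 524 CPM in CCI VSMCs and 852 and 767 CPM in CON VSMCs, against 3.59, 3.96, 14.7 and 0.0 CPM in pericytes of those libraries. The pooled ratio was 107-fold, from 1632 and 7 UMIs. With cells thinned to 1500 UMIs, 51.8 and 50% of CCI VSMCs and 59.6 and 45.9% of CON VSMCs had a Pln UMI, against 0.0 to 0.877% of pericytes. Pln was therefore not seen in every VSMC at this depth. The pump itself, Atp2a2 (SERCA2), had a log2 ratio of 1.77 ± 0.41, Casq2 (calsequestrin) 4.43 ± 1.56 and the IP3 receptor Itpr1 1.95 ± 0.31.

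Of 26 measured ion channel and calcium handling genes, 7 were 2-fold higher in VSMCs in all 4 libraries and 1 was lower, with a median log2 ratio of 1.15. Kcna5, a voltage-gated potassium channel, had 156, 109, 120 and 195 CPM in VSMCs of CCI replicates 1 and 2 and CON replicates 1 and 2, and 3 UMIs in all pericytes. The T-type calcium channel Cacna1g had 54.4 and 32.2 CPM in CCI VSMCs and 69.8 and 72.3 CPM in CON VSMCs, and no UMI in pericytes. Kcnab1, a beta subunit of voltage-gated potassium channels, had a log2 ratio of 3.66 ± 1.72, and Kcnmb1, the smooth muscle beta subunit of the large-conductance calcium-activated potassium channel, 3.03 ± 1.19. The L-type pore subunit Cacna1c differed less, by 0.62 ± 0.47, with 57.5 and 64.4 CPM in CCI VSMCs and 85.8 and 83.2 CPM in CON VSMCs. Trpc6, a receptor-operated cation channel, was the member lower in VSMCs, by a log2 ratio of -1.35 ± 0.19.

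The receptor repertoire differed from that of pericytes in a few genes. Ramp1 (chromosome 1, 91179822 to 91225196), a subunit of the receptor for the sensory neuropeptide CGRP, had 202 and 156 CPM in CCI VSMCs and 178 and 206 CPM in CON VSMCs, against 3.59, 3.96, 3.68 and 0.0 CPM in pericytes. Its log2 ratio was 5.13 ± 0.15. Pericytes of those libraries held only 1, 2, 1 and 0 Ramp1 UMIs, so this ratio and its small spread depend on the prior count. Calcrl, the seven-transmembrane partner of Ramp1, was low in both, at 14.5 to 21.9 CPM in VSMCs and 10.8 to 43.2 CPM in pericytes. Pde3a, a phosphodiesterase that breaks down cyclic AMP, was higher in VSMCs by 1.94 ± 0.39. The alpha-2A adrenoceptor Adra2a had 8.37 and 15.4 CPM in CCI VSMCs and 7.98 and 14.5 CPM in CON VSMCs, against 326, 253, 364 and 324 CPM in pericytes. The angiotensin receptor Agtr1a had a log2 ratio of -3.30 ± 1.15. The soluble guanylate cyclase subunits, which bind nitric oxide, were present in both cell types, with log2 ratios of 0.83 ± 0.40 for Gucy1a1 and 0.05 ± 0.23 for Gucy1b1. Endothelin receptor Ednra differed by 0.07 ± 0.32. Over the whole list, 2 of 27 measured vasoactive receptor and second messenger genes were 2-fold higher in VSMCs and 3 were lower.

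Myocd, the gene of myocardin, had 63.8 and 39.9 CPM in CCI VSMCs and 81.8 and 68.7 CPM in CON VSMCs. No pericyte held a Myocd UMI, and the 152 UMIs of VSMCs against a floor of 3 UMIs over all pericytes make it at least 23.2-fold higher. Csrp2, a cofactor of serum response factor, was higher by 2.02 ± 0.35, while Srf itself had 7.98 to 18.8 CPM in VSMCs. Tcf15, a basic helix-loop-helix factor, had 123 and 94.0 CPM in CCI VSMCs and 108 and 282 CPM in CON VSMCs, and 2 UMIs in all pericytes. Zeb2, a zinc finger repressor, was lower in VSMCs, with a ratio of -1.14 ± 0.08. Of the Notch pathway, the receptor Notch3 was alike in level, with a ratio of 0.19 ± 0.22, the ligand Jag1 was higher by 1.32 ± 0.29 and the nuclear receptor interacting protein Nrip2 by 2.78 ± 0.95. The target genes Hey2 and Heyl differed by 1.21 ± 0.26 and -1.43 ± 0.68.

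Matrix genes differed between the cell types in both directions. Among elastic fibre, basement membrane and integrin genes, 5 of 27 were 2-fold higher in VSMCs in all 4 libraries and 3 were lower. The median log2 ratio of this list was 0.06. Elastin (Eln) had 174 and 103 CPM in CCI VSMCs and 132 and 127 CPM in CON VSMCs, a ratio of 2.80 ± 0.84. Fbln5, which assembles elastic fibres, was lower in VSMCs, with a pooled ratio of 0.49-fold. The laminin chains Lama5 and Lamb2 were higher by 3.83 ± 0.65 and 1.68 ± 0.41, while Lamb1 and Lamc3 had ratios of -1.93 ± 0.62 and -2.29 ± 0.30. Itga8, an integrin subunit of smooth muscle, and Ltbp1, which anchors latent TGF-beta in the matrix, had ratios of 3.68 ± 1.87 and 2.91 ± 0.55. Of 29 fibrillar collagen and interstitial matrix genes, 2 were higher and 8 lower. Collagens of the interstitium were among the lower ones, with ratios of -3.38 ± 1.68 for Col3a1, -2.98 ± 0.99 for Col6a1 and -2.22 ± 0.53 for Col6a3. The sum of the 10 fibroblast markers was also lower in VSMCs than in pericytes, which had 929 and 9412 CPM in CCI and 1073 and 216 CPM in CON, and its part in the collagen ratios was not tested. Sparcl1, a secreted matricellular protein that satellite glia also express, was higher by 2.53 ± 0.44.

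Of 31 growth factor ligands and receptors, 3 were 2-fold higher in VSMCs in all 4 libraries and 1 was lower, and of 13 neurotrophic and guidance genes 2 were higher and 2 lower. Tgfb2 and Tgfb3 were higher in VSMCs by 2.32 ± 0.46 and 2.43 ± 0.54, as was Smad7, an inhibitor of TGF-beta signalling, by 2.06 ± 0.78. Inhba, the activin A subunit, had 124 and 83.7 CPM in CCI VSMCs and 104 and 86.8 CPM in CON VSMCs, and 2 UMIs in all pericytes. Ntf3 (neurotrophin-3, a survival factor of proprioceptive neurons) had 69.0 and 34.7 CPM in CCI VSMCs and 71.8 and 90.4 CPM in CON VSMCs, and 1 UMI in all pericytes. Netrin-4 (Ntn4), a laminin-related basement membrane protein, had a pooled ratio of 19.6-fold. In the other kept cells Ntf3 lay between 0.398 and 1.07 CPM.

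Of 16 measured pericyte markers, 7 were 2-fold lower in VSMCs in all 4 libraries and none was higher. Kcnj8 (chromosome 6, 142564837 to 142571614), the pore of the ATP-sensitive potassium channel, had 10.5 and 37.3 CPM in CCI VSMCs and 5.99 and 25.3 CPM in CON VSMCs, against 438, 583, 327 and 593 CPM in pericytes. Its sulphonylurea receptor subunit Abcc9 had a ratio of -3.86 ± 0.74, and Vtn (vitronectin) one of -3.01 ± 0.56. Rgs5 (chromosome 1, 169655501 to 169695813), a regulator of G-protein signalling used to gate the pericytes, had 4028 and 4659 CPM in CCI VSMCs and 1720 and 8199 CPM in CON VSMCs, against 5719, 4622, 4767 and 7272 CPM in pericytes. The ranges overlapped, and CCI replicate 1 and CON replicate 1 were lower in VSMCs. Ndufa4l2, a hypoxia-regulated mitochondrial protein, and Higd1b had ratios of 0.11 ± 0.35 and -0.13 ± 0.87.

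Of 28 interferon and MHC class I genes, 9 were 2-fold lower in VSMCs in all 4 libraries and none was higher, with a median log2 ratio of -1.22. Ifitm1, an interferon-induced membrane protein, had 62.7 and 115 CPM in CCI VSMCs and 14 and 203 CPM in CON VSMCs, against 2124, 2723, 1577 and 2838 CPM in pericytes. Of 28 cytokine, chemokine and inflammatory signalling genes, 5 were lower and none higher. Ccl11 (eotaxin), Cxcl1 and Ccl2 had ratios of -4.69 ± 1.31, -3.05 ± 0.77 and -2.93 ± 0.55, and Il6st, the shared receptor chain of the IL-6 family, one of -1.76 ± 0.22. Summed over 10 genes, macrophage and immune markers had 28.7 and 2907 CPM in CCI pericytes, against 228 and 10.8 CPM in CON pericytes. In VSMCs of the same libraries the sum was 40.8, 243, 170 and 18.1 CPM. The part of RNA from immune cells or fibroblasts in the ratios of this paragraph was not tested.

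**Figure D2:**
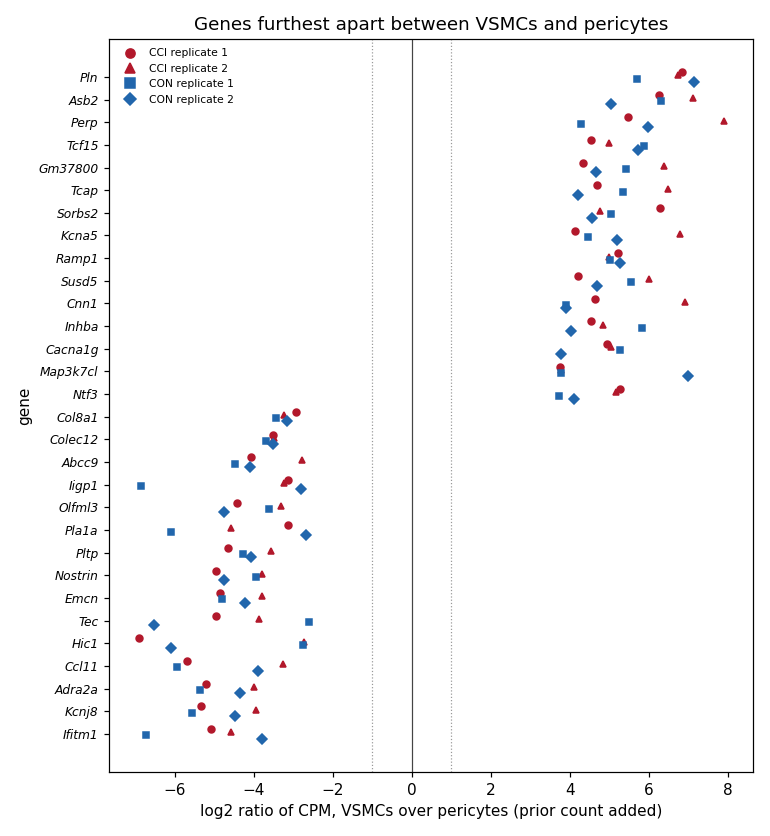
Log2 ratio of CPM, VSMCs over pericytes, for the 15 genes furthest above and the 15 furthest below by their smallest ratio over the 4 libraries; red points are CCI libraries and blue points CON libraries. Every point lies past the dotted 2-fold lines, from Pln (6.60 ± 0.63) at the top to Ifitm1 (-5.04 ± 1.24) at the bottom.

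The remaining genes of this ranking on the higher side were Asb2, a muscle ubiquitin ligase subunit (137 and 138 CPM in CCI VSMCs, 144 and 177 CPM in CON VSMCs, no UMI in pericytes), Sorbs2, a cytoskeletal adaptor, Tcap, the titin cap protein, Perp, Susd5, Map3k7cl and the unnamed transcript Gm37800. On the lower side they were Nostrin, Emcn, Pltp, Colec12, Olfml3, Col8a1, Iigp1, Hic1, Pla1a and Tec. Emcn and Nostrin are also endothelial genes. They had 3.99 to 15.4 CPM and 0.0 to 3.86 CPM in VSMCs, against 136 to 222 CPM and 14.4 to 61.3 CPM in pericytes, and their part in the pericyte levels was not tested. With a pericyte gate free of the limits on Flt1 and neuronal genes, 1727 genes were higher and 1378 lower in VSMCs. Of the 239 genes higher and 174 lower here, 221 and 13 were among them.

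VSMCs differed among themselves in Rgs5. The median VSMC held 4.5 and 14.5 Rgs5 UMIs in the CCI libraries, against 1 and 42 in the CON libraries, while the highest cell of each library held 49 to 219. By contrast, Acta2 had medians of 45 and 43 UMIs in the CCI libraries and 22 and 89 in the CON libraries, and at least 10 in every cell by the gate. VSMCs with at least 3 Rgs5 UMIs, enough for the pericyte gate but for Myh11, numbered 129 of 226 and 106 of 146 in the CCI libraries, against 52 of 173 and 32 of 37 in the CON libraries. To see which genes went with Rgs5, each library's VSMCs were ordered by the Rgs5 share of their UMIs, and the highest and lowest 75, 48, 57 and 12 cells of CCI replicates 1 and 2 and CON replicates 1 and 2 were summed. Both ends had similar depth, with median UMIs of 4621 against 4550 in CCI replicate 1, 4846 against 5152 in CCI replicate 2, 2947 against 2895 in CON replicate 1 and 7193 against 6874 in CON replicate 2.

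Of 5084 genes, 47 (0.924%) were at least 2-fold higher in the Rgs5-high cells in all 4 libraries and 19 (0.374%) at least 2-fold lower. The Rgs5-high VSMCs had more of several genes that were also higher in pericytes. Vtn had 479 and 496 CPM in Rgs5-high VSMCs of the CCI libraries, against 19.4 and 36.2 CPM in their Rgs5-low VSMCs. In the CON libraries Vtn had 208 and 626 CPM in Rgs5-high VSMCs, against 0.0 and 11.8 CPM in Rgs5-low VSMCs. Rgs16, another regulator of G-protein signalling, had 441, 832, 208 and 209 CPM in Rgs5-high VSMCs of CCI replicates 1 and 2 and CON replicates 1 and 2, against 12.9, 84.4, 12 and 23.6 CPM in Rgs5-low VSMCs. Ifitm1, Steap4, Agtr1a and Lamc3 belonged here too, with log2 ratios of 5.10 ± 2.36, 3.14 ± 0.94, 2.73 ± 0.87 and 2.54 ± 0.43. Higd1b, a mural cell gene at like levels in VSMCs and pericytes, had a ratio of 2.37 ± 0.44. Htr1b, the serotonin receptor addressed by triptans, had a ratio of 2.78 ± 0.57, the calcium-activated chloride channel Ano1 1.82 ± 0.77 and Gucy1b1 1.21 ± 0.15.

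The Rgs5-low VSMCs had more of several elastic fibre and contractile genes. Eln had 430 and 261 CPM in Rgs5-low VSMCs of the CCI libraries and 215 and 283 CPM in those of the CON libraries. The Rgs5-high VSMCs had 8.87, 4.20, 23.8 and 11.6 CPM of Eln in the same libraries. Cnn1 had 252, 213, 126 and 189 CPM in Rgs5-low VSMCs of CCI replicates 1 and 2 and CON replicates 1 and 2, and 20.7, 33.6, 35.6 and 0.0 CPM in Rgs5-high VSMCs. Fbln5, which assembles elastic fibres, the transglutaminase Tgm2, smoothelin (Smtn), Csrp1, perlecan (Hspg2) and Ramp1 were also lower in the Rgs5-high cells, with ratios of -2.61 ± 1.19, -3.49 ± 0.85, -1.63 ± 0.45, -1.83 ± 0.94, -1.68 ± 0.44 and -1.36 ± 0.26. The satellite glia gene Fabp7 followed the same direction (-2.61 ± 1.44), and its part in the other differences was not tested. Cells were ordered by a measured gene, so the 2 ends are ranges of that order, no test applies, and whether they form separate types was not tested.

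**Figure D3:**
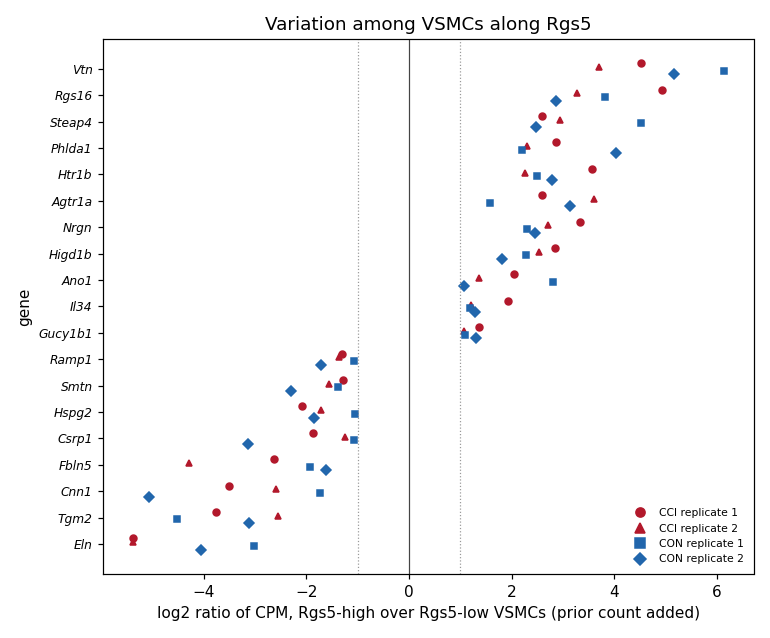
Log2 ratio of CPM in the Rgs5-high over the Rgs5-low VSMCs of each library for 19 genes; red points are CCI libraries, blue points CON libraries and dotted lines 2-fold. Genes from Vtn to Gucy1b1 lie above 2-fold and genes from Ramp1 to Eln below in all 4 libraries, with the widest scatter for Cnn1.

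The share of VSMCs among kept cells overlapped between CCI and CON. It was 2.03% (exact binomial 95% interval 1.77 to 2.30%) and 1.38% (1.16 to 1.62%) in the CCI libraries, against 1.61% (1.38 to 1.87%) and 1.42% (0.999 to 1.95%) in the CON libraries. The intervals cover counting error only. Means were 1.70% ± 0.459 in CCI and 1.51% ± 0.137 in CON (SD, n = 2 each), a difference of 0.188 percentage points (exact two-sided permutation p = 1.0, where 0.33 is the smallest p that 2 against 2 allows). After thinning of every cell to 2000 UMIs the shares were 2.96 and 1.37% in CCI, against 1.95 and 1.33% in CON, with 3176, 2325, 4400 and 358 shallower cells left out of CCI replicates 1 and 2 and CON replicates 1 and 2. Thinning lowers the neuronal UMIs too, and CCI replicate 1 had 236 VSMCs after it, against 226 before. The limit on neuronal UMIs alone kept out 76 and 5 barcodes in the CCI libraries, against 1 and 1 in the CON libraries. The share of CCI replicate 1 thus depends on this limit. Of VSMCs and pericytes together, VSMCs made up 67.5 and 53.1% in CCI, against 56.4 and 64.9% in CON.

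Whether nerve injury changed gene levels in VSMCs was tested on the summed counts with edgeR's quasi-likelihood test and Benjamini-Hochberg adjustment. Of 7722 genes tested, 0 (0.0%) were higher and 0 (0.0%) lower in CCI at an adjusted p under 0.05. At an unadjusted p under 0.05 there were 205 genes (2.65%), and DESeq2 called 1 gene, Bc1. The groups did not overlap for 856 genes (11.1%) with CCI above and for 1478 (19.1%) with CCI below. A difference of at least 2-fold without overlap was found upward for 208 genes (2.69%) and downward for 116 (1.5%). No gene below passed the test, so values are given, and adjusted p in the fit with every library was 1.00 for each gene with a fold change unless stated. Leaving out CON replicate 1 gave 179 genes higher and 23 lower, among them 23 of the 41 genes below whose alternatives were computed, and leaving out CON replicate 2 gave 10 higher and 6 lower, with the lone CON library assumed to vary like the CCI libraries. The 23 genes were Cebpb, Cebpd, Socs3, Nfkbia, Nfkbiz, Irf1, Il6, Tnfrsf12a, Fosb, Atf3, Klf2, Gadd45a, Gadd45b, Mt1, Adamts4, Bdnf, Uap1, Gem, Crem, Neat1 and Gal on the higher side and Hes1 and Bc1 on the lower. Leaving out Gal, which was at 0 in CON replicate 2, their log2 fold changes against that library lay between 1.61 for Uap1 and 4.54 for Adamts4 on the higher side and were -1.24 for Hes1 and -2.49 for Bc1. Bc1 and Gal also passed without CON replicate 2, and Il6 without CCI replicate 1. Without a filter on low counts 59 were higher and 8 lower.

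The list of cytokine, chemokine and inflammatory signalling genes stood highest among the lists of VSMC genes. CCI lay above CON without overlap for 14 of its 24 tested genes and by at least 2-fold for 11 of them, against 11.1% and 2.69% of all genes. None of the 24 lay below. The median log2 fold change was 1.44 in the list and 0.00 over all genes tested, and 10 of the 24 had an unadjusted p under 0.05. By level, the list was led by the transcription factors Cebpb and Cebpd, the JAK-STAT inhibitor Socs3 and the NF-kappaB inhibitor Nfkbia. Nfkbia (chromosome 12, 55489409 to 55492647) had 549 and 556 CPM in CCI VSMCs, against 233 and 192 CPM in CON VSMCs. Its CCI libraries were close to each other, and its log2 fold change was 1.47 ± 0.30 (SE). Cebpb had 1951 and 3363 CPM in CCI VSMCs, against 1407 and 391 CPM in CON VSMCs, a log2 fold change of 1.63 ± 0.68. CON replicate 1 lay closer to CCI replicate 1 than to CON replicate 2. Socs3 had 810 and 974 CPM in CCI VSMCs, against 581 and 199 CPM in CON VSMCs. Cebpd overlapped, with 688 and 1064 CPM in CCI VSMCs, against 744 and 137 CPM in CON VSMCs.

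Further members were singled out after their values were seen. Il6 (chromosome 5, 30013114 to 30019975), the cytokine interleukin-6, had 37.6 and 149 CPM in CCI VSMCs, from 36 and 116 UMIs, against 3.99 and 7.23 CPM in CON VSMCs, from 2 and 2 UMIs. Its log2 fold change was 4.19 ± 0.96. Osmr, the oncostatin M receptor that signals with Il6st, had 49.1 and 94.0 CPM in CCI VSMCs, against 18.0 and 28.9 CPM in CON VSMCs. Irf1, an interferon regulatory factor, had 307 and 479 CPM in CCI VSMCs, against 142 and 43.4 CPM in CON VSMCs. Nfkbiz had 173 and 225 CPM in CCI VSMCs, against 95.8 and 47.0 CPM in CON VSMCs. For these genes the groups did not overlap. The TWEAK receptor Tnfrsf12a and the TNF receptor Tnfrsf1a had log2 fold changes of 1.92 ± 0.49 and 0.95 ± 0.32, and Stat3 one of 0.82 ± 0.27. The chemokine Cxcl2 and the NF-kappaB inhibitor Tnfaip3 had 17 and 17 UMIs and 22 and 20 UMIs in CCI VSMCs, against 2 and 0 UMIs and 4 and 1 UMIs in CON VSMCs.

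Immune markers overlapped between the groups in VSMCs. Their sum was highest in CCI replicate 2 and lowest in CON replicate 2, as were Irf1 and Cebpb but not Il6. The sum of 10 macrophage and immune markers was 40.8 and 243 CPM in CCI VSMCs, against 170 and 18.1 CPM in CON VSMCs, with Ptprc at 3.14 and 3.86 CPM in CCI VSMCs, against 3.99 and 0.0 CPM in CON VSMCs. In all other kept cells together, Nfkbia had 92.7 and 284 CPM in CCI, against 113 and 133 CPM in CON, and Il6 had 8.73 and 41.1 CPM in CCI, against 1.93 and 0.849 CPM in CON. The VSMC levels of both genes lay above these in each library, but pericytes are not among those cells. Pericytes had 409 and 920 CPM of Nfkbia in CCI, against 268 and 324 CPM in CON. Only in CCI replicate 1 was this below the VSMC level. Their Il6 lay above that of VSMCs in each library, at 78.9 and 965 CPM in CCI, against 62.5 and 10.8 CPM in CON. Tnfrsf12a had 57.5 and 95.2 CPM in CCI VSMCs, against 25.9 and 14.5 CPM in CON VSMCs, and in all other kept cells 62.5 and 67.0 CPM in CCI, against 9.03 and 11.8 CPM in CON, so that CCI replicate 1 was lower in VSMCs than in those cells. Without the 3 and 16 CCI VSMCs and the 10 and 2 CON VSMCs that held at least 50 Apoe or 10 Dcn UMIs, an alternative chosen after seeing the data, the log2 fold change was 1.61 for Nfkbia, 5.09 for Il6, 2.17 for Irf1 and 1.74 for Cebpb. Among the alternatives tried, the lowest values of Il6 and Cebpb were 2.90 without CCI replicate 2 and 0.96 without CON replicate 2.

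**Figure D4:**
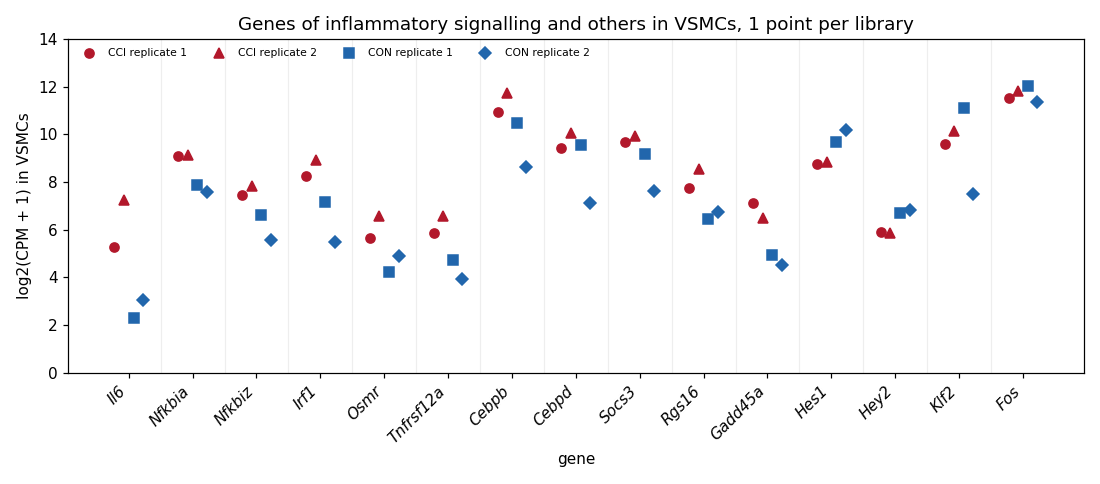
Levels of 15 genes in VSMCs as log2(CPM + 1), with 1 point per library, CCI in red and CON in blue. The CCI points of Il6, Nfkbia, Nfkbiz, Irf1, Osmr, Tnfrsf12a, Cebpb, Socs3, Rgs16 and Gadd45a lie above both CON points, those of Hes1 and Hey2 lie below, and those of Cebpd, Klf2 and Fos overlap.

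Immediate early genes, transcription factors that respond within minutes to many stimuli, were abundant in VSMCs of both groups. CCI lay above CON without overlap for 10 of 26 tested genes, by at least 2-fold for 5, and below for 1, with a median log2 fold change of 0.69. The shares over all genes were 11.1% above, 2.69% above by at least 2-fold and 19.1% below. Fos was the highest and overlapped, with 2967 and 3623 CPM in CCI VSMCs, against 4212 and 2597 CPM in CON VSMCs. Junb had 3402 and 3766 CPM in CCI VSMCs, against 2921 and 2315 CPM in CON VSMCs, a log2 fold change of 0.55 ± 0.32. Jun had 2257 and 2216 CPM in CCI VSMCs, against 2099 and 1646 CPM in CON VSMCs. Fosb and Jund, further subunits of the AP-1 factor picked after their values were seen, did not overlap between groups and had log2 fold changes of 1.43 ± 0.70 and 0.69 ± 0.31. Btg2, an antiproliferative gene, overlapped, with 2520 and 2068 CPM in CCI VSMCs, against 4025 and 940 CPM in CON VSMCs. The CON libraries stood far apart in Btg2, Klf2 and Atf3. Klf2, a Kruppel-like factor, had 771 and 1142 CPM in CCI VSMCs, against 2209 and 181 CPM in CON VSMCs. Its log2 fold change of -0.28 ± 1.03 was 2.53 without CON replicate 1 and stayed negative without CON replicate 2. Each of these fits had a lone CON library. Atf3, a stress-induced factor, had 1295 and 1755 CPM in CCI VSMCs, against 1443 and 311 CPM in CON VSMCs. Its log2 fold change of 0.86 ± 0.73 was 2.42 without CON replicate 1 and 0.12 without CON replicate 2.

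Of 22 tested stress genes, 9 lay above CON in CCI without overlap, 6 of these by at least 2-fold, and 1 lay below. The shares over all genes were 11.1%, 2.69% and 19.1%. The heat shock genes differed between replicates more than between groups. Hspa1a had 4351 and 467 CPM in CCI VSMCs, against 1730 and 3074 CPM in CON VSMCs, Hspa1b had 3176 and 260 CPM in CCI VSMCs, against 1034 and 3117 CPM in CON VSMCs, and Hspb1 had 4227 and 1247 CPM in CCI VSMCs, against 3669 and 2973 CPM in CON VSMCs. The members without overlap included the growth arrest genes Gadd45a and Gadd45b and the metallothioneins Mt1 and Mt2, which bind zinc. Gadd45a had 140 and 90.1 CPM in CCI VSMCs, against 29.9 and 21.7 CPM in CON VSMCs, a log2 fold change of 2.20 ± 0.40. In all other kept cells it had 290 and 216 CPM in CCI, against 31.2 and 39.6 CPM in CON. Mt1 had 1436 and 2977 CPM in CCI VSMCs, against 1287 and 514 CPM in CON VSMCs.

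Among cells that passed the gate, the contractile genes showed no such shift. The gate required UMIs of Acta2, Tagln and Myh11, so cells that had lost these would not be counted. A loss of contractile genes after CCI was therefore not tested. Of 22 tested, CCI lay above CON without overlap for 2, Cnn1 and Cald1, and below for 3, Pln, Synpo2 and Ppp1r12b, none of them by 2-fold, with a median log2 fold change of 0.14. Tpm2 and Mylk had log2 fold changes of 0.31 ± 0.35 and 0.19 ± 0.29, and Cnn1 one of 0.74 ± 0.26. The 15 tested pericyte markers all overlapped between groups. Rgs5 had a log2 fold change of -0.05 ± 0.67, and Steap4, with 48.1 and 142 CPM in CCI VSMCs, against 25.9 and 50.6 CPM in CON VSMCs, had the largest value in that list. Of 26 tested ion channel genes, 3 lay above and 2 below without overlap, none by 2-fold. For comparison with these lists, 11.1% of all genes lay above and 19.1% below.

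Among vasoactive receptors and second messengers 2 of 28 tested genes lay above without overlap, both by at least 2-fold, and 4 below, 1 of them by 2-fold. Over all genes 11.1% lay above, 2.69% by at least 2-fold, and 19.1% below, 1.5% by at least 2-fold. Rgs16 (chromosome 1, 153740353 to 153745468) had 211 and 368 CPM in CCI VSMCs, against 85.8 and 105 CPM in CON VSMCs, a log2 fold change of 1.71 ± 0.38. Ptgir, the prostacyclin receptor, had 41.8 and 42.5 CPM in CCI VSMCs, against 18.0 and 25.3 CPM in CON VSMCs. The neuropeptide Y receptor Npy1r had 268 and 207 CPM in CCI VSMCs, against 393 and 405 CPM in CON VSMCs, a log2 fold change of -0.65 ± 0.29. Rgs4, the most abundant member of this list after Rgs5, overlapped, with 592 and 495 CPM in CCI VSMCs, against 557 and 1118 CPM in CON VSMCs.

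Hes1, Hey2 and Heyl, Notch targets of the Hes and Hey families, encode transcriptional repressors. Of 10 tested Notch genes, CCI lay below CON without overlap for 4, by 2-fold for 1, and above for 1, against 19.1% of all genes below and 11.1% above. Hes1 (chromosome 16, 30065357 to 30067796) had 436 and 450 CPM in CCI VSMCs, against 828 and 1146 CPM in CON VSMCs, a log2 fold change of -1.04 ± 0.30. Hey2 had 58.6 and 57.9 CPM in CCI VSMCs, against 102 and 112 CPM in CON VSMCs, a log2 fold change of -0.77 ± 0.27. The CCI libraries were close to each other in both genes. Heyl was the member above, with 80.5 and 83.7 CPM in CCI VSMCs, against 37.9 and 79.6 CPM in CON VSMCs, and Notch3 overlapped. In all other kept cells Hes1 had 30.3 and 48.9 CPM in CCI, against 61.7 and 247 CPM in CON. Leaving out CON replicate 1 gave Hes1 a log2 fold change of -1.24 (adjusted p = 0.0232, edgeR), and no other alternative called it.

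**Figure D5:**
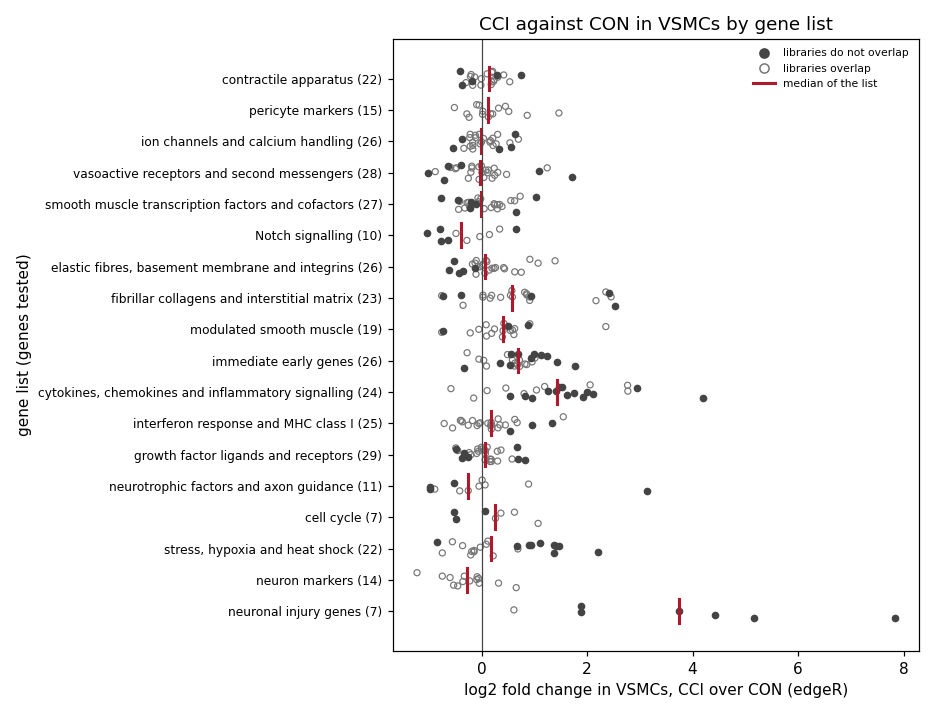
Log2 fold change in VSMCs, CCI over CON, for the tested genes of each list, with the number tested in brackets and the genes of the gate left out; filled points are genes whose CCI and CON libraries do not overlap, open points overlap, and the red bar is the median of the list. The medians of inflammatory signalling (1.44) and of neuronal injury genes stand furthest right among the lists shown, and those of contractile genes (0.14) and neuron markers (-0.28) stand near 0. The rightmost point is Npy, whose CON libraries are at 0, so that its place depends on the prior count.

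Matrix genes were scattered. Of 26 elastic fibre, basement membrane and integrin genes, none lay above without overlap and 5 lay below, none by 2-fold. Of 23 interstitial matrix genes, 3 lay above, 2 of these by 2-fold, and 2 lay below, none by 2-fold. The shares over all genes were 11.1% above, 2.69% above by 2-fold and 19.1% below, so 5 of 26 was near the share of all genes. Adamts4, a protease of proteoglycans, had 252 and 528 CPM in CCI VSMCs, against 128 and 18.1 CPM in CON VSMCs, a log2 fold change of 2.41 ± 0.84. Col3a1 had 57.5 and 375 CPM in CCI VSMCs, against 41.9 and 36.2 CPM in CON VSMCs, and its log2 fold change of 2.54 ± 0.91 was 0.66 without CCI replicate 2. The fibroblast gene Dcn was highest in the same library, with 20.9 and 772 CPM in CCI VSMCs, against 148 and 3.62 CPM in CON VSMCs. The part of fibroblast RNA in the value of Col3a1 was not tested. With barcodes rich in Apoe or Dcn left out, Col3a1 had a log2 fold change of 2.68. That step took barcodes from every library and kept those with fewer such UMIs, so it cannot decide the question.

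Igfbp7, a secreted protein that binds insulin-like growth factors, had 5784 and 5400.2 CPM in CCI VSMCs, against 3384 and 6509.7 CPM in CON VSMCs. Among transcription factors after Klf2, Mef2c, a partner of smooth muscle differentiation factors, had a log2 ratio of 1.51 ± 0.61 over pericytes and a CCI log2 fold change of -0.23 ± 0.38. Epas1 (HIF-2 alpha) had 0.57 ± 0.25 and 0.05 ± 0.33 for the same quantities, and Ebf1, higher in pericytes, had -0.76 ± 0.29 and -0.24 ± 0.32. The gap junction gene Gja4 (connexin 37) had a log2 ratio of 0.25 ± 0.54 over pericytes, and its CCI log2 fold change was -0.52 ± 0.60. Of 19 tested genes of the modulated smooth muscle state, 2 lay above without overlap and 1 below, none by 2-fold. The gate limits this count too, since cells low in Acta2, Tagln or Myh11 were left out. Over all genes 11.1% lay above and 19.1% below. Vim, the intermediate filament vimentin, lay above, with a CCI log2 fold change of 0.50 ± 0.35.

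Genes that act on neurons were few. Of 11 tested neurotrophic and guidance genes, 1 lay above without overlap and 3 below, against 11.1% of all genes above and 19.1% below. Ntn4 had 131 and 100 CPM in CCI VSMCs, against 206 and 286 CPM in CON VSMCs, a log2 fold change of -0.97 ± 0.30. Bdnf (chromosome 2, 109674700 to 109727043), brain-derived neurotrophic factor, had 73.2 and 96.5 CPM in CCI VSMCs, from 70 and 75 UMIs, against 12 and 7.23 CPM in CON VSMCs, from 6 and 2 UMIs. Its log2 fold change was 3.13 ± 0.45. In all other kept cells Bdnf had 135 and 122 CPM in CCI, against 78.1 and 64.0 CPM in CON, so the levels there were higher than in VSMCs in each library. Genes known from injured sensory neurons were found in CCI VSMCs as well. CCI lay above CON without overlap for 6 of 7 tested, against 11.1% of all genes. The neuropeptide galanin (Gal) had 368 and 130 CPM in CCI VSMCs, against 19.95 and 0.0 CPM in CON VSMCs, while in all other kept cells it had 2144 and 2193 CPM in CCI, against 143 and 135 CPM in CON. Sprr1a, a small proline-rich protein induced in injured neurons, had 57.5 and 42.5 CPM in CCI VSMCs, against 2.0 and 0.0 CPM in CON VSMCs, and in all other kept cells 632 and 1163 CPM in CCI, against 1.77 and 5.55 CPM in CON. Npy had 50 and 28 UMIs in CCI VSMCs and was at 0 in both CON libraries. The part of free neuronal RNA in these values was not tested.

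Further genes with a small unadjusted p were named after their values were seen. Uap1, an enzyme of UDP-N-acetylglucosamine synthesis, had 148 and 197 CPM in CCI VSMCs, against 51.9 and 61.5 CPM in CON VSMCs, a log2 fold change of 1.71 ± 0.30. Gem, a small GTPase that inhibits voltage-gated calcium channels, had 326 and 313 CPM in CCI VSMCs, against 126 and 83.2 CPM in CON VSMCs. Crem, a cyclic AMP response factor, had 97.2 and 216 CPM in CCI VSMCs, against 33.9 and 36.2 CPM in CON VSMCs. Cenpl, a centromere protein gene, had 36.6 and 39.9 CPM in CCI VSMCs, against 9.98 and 7.23 CPM in CON VSMCs. The nuclear non-coding RNA Neat1 had 654 and 995 CPM in CCI VSMCs, against 251 and 264 CPM in CON VSMCs. All these CCI libraries lay above both CON libraries. Bc1, a neuronal non-coding RNA, had 11.5 and 21.9 CPM in CCI VSMCs, against 373 and 101 CPM in CON VSMCs, a log2 fold change of -3.79 ± 0.75 (adjusted p = 0.021 in DESeq2). In all other kept cells Bc1 had 27.6 and 41.3 CPM in CCI, against 596 and 154 CPM in CON.

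The same comparison in pericytes called 0 of 4977 genes (0.0%) with edgeR, with 95 at an unadjusted p under 0.05, and DESeq2 called 2 genes, Apod and Gal. The pericytes came from the same 4 libraries, so the difference of the CCI effect between the cell types was tested with the library as a block. It was called for 0 of 7291 genes (0.0%) by edgeR and 0 by DESeq2, with 276 genes at an unadjusted p under 0.05 in edgeR. The difference of the log2 fold change, VSMCs minus pericytes, was 0.83 ± 0.96 for Il6 and 1.14 ± 0.40 for Rgs16. Il6 reached higher levels in pericytes, where it had 78.9 and 965 CPM in CCI, against 62.5 and 10.8 CPM in CON. An effect of CCI particular to VSMCs was thus not detectable with 2 libraries per group.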

How the data were processed

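Cells of L4-5 DRGs were captured with 10x Genomics 3' chemistry, and 10x matrices of whole UMI counts were deposited, 1 per library, for 31253 genes. Per the study's methods and the labels, the authors used fastp for trimming and mm10 as the reference. Per the file headers, the deposited counts came from Cell Ranger 5.0.1, and they were made before the authors' own cell filter. Labels and paper differ in the digestion of the ganglia. The matrices hold 37451 barcodes and 376214405 UMIs (52074235 to 135009606 per library).

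Here barcodes were filtered and gated as described, 13 mitochondrial genes were removed and counts were summed per library and cell type. edgeR 4.0.16 (TMM factors, filterByExpr, quasi-likelihood test, Benjamini-Hochberg adjustment, adjusted p under 0.05) in R 4.3.3 compared 2 CCI with 2 CON libraries. The difference of the CCI effect between cell types was an interaction term, blocked by library. The scripts were tested on simulated data. Levels are CPM before TMM scaling, and the profile used genes with at least 50 UMIs. No doublet caller was run, and barcodes with at least 2 UMIs over 7 marker genes of other cell types were left out as an alternative. Intervals are exact binomial (scipy 1.17.1), and a count of 0 allows up to 3 UMIs. Also tried were DESeq2 1.42.0, a replicate block, upper-quartile factors, no filter, each library left out, a stricter cell filter (over 1000 genes, under 10% mitochondrial UMIs), thinning, at least 3 Myh11 UMIs, the deepest 10% of cells left out and a looser pericyte gate. The VSMC gate, the gene lists and the tests were chosen with earlier results of these data known. Named are the 15 highest and 15 lowest genes of the profile, up to 4 members of a list with the highest level in VSMCs, the markers of the gate and the defining markers of other cells. Other named genes were chosen after their values were seen. Gene coordinates are from RefSeq's annotation of GRCm38.p6, the build of mm10. No sequence is shown, since the reference used here held none.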

Additional observations from a re-analysis of the deposited data

How the results depend on the processing

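With 2 libraries per group, no gene passed the CCI test in VSMCs. The count of 0 held with upper-quartile factors, thinning, the stricter cell filter, at least 3 Myh11 UMIs and each set of barcodes left out. DESeq2 called 1 gene in VSMCs and 2 in pericytes. Without a filter on low counts 67 genes were called in VSMCs, 66 in pericytes and 20 in the difference between them. Leaving out 1 library gave 0 to 202 genes in VSMCs, 0 to 52 in pericytes and 0 to 55 in the difference. With the looser pericyte gate 183 genes were called in pericytes, and the profile held 1727 higher and 1378 lower genes. Libraries left out moved the profile between 237 and 286 higher and 148 and 203 lower genes. The share of VSMCs, CCI minus CON, lay between -0.136 and 0.513 percentage points with 1 library left out, and was -0.355 among VSMCs and pericytes. A fit with the replicate number as a block called 0 genes in VSMCs and 7 in pericytes. The labels do not say whether equally numbered libraries were handled together. Their deviations correlated at 0.246 in VSMCs and 0.367 in pericytes. With 2 libraries per group, this cannot decide whether they are paired. The log2 fold changes of 41 genes were followed. Rgs5 changed sign with the replicate block (0.31), with mixed barcodes left out (0.0205) and with glia and fibroblast barcodes left out (0.0717), and lay between -0.79 and 1.37 with 1 library left out. Klf2 changed sign with the replicate block (0.61), and lay between -1.17 and 2.53 with 1 library left out. The other 39 kept their direction under every alternative that tested them. The cause of these shifts was not tested. CON replicate 2, with 37 VSMCs, limits the depth of every comparison.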

Other observations

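Interferon-stimulated genes of VSMCs followed the library more than the group. Isg15, a ubiquitin-like protein, had 313 and 178 CPM in CCI VSMCs, against 67.8 and 644 CPM in CON VSMCs. Ifit3 had 61.7 and 82.4 CPM in CCI VSMCs, against 0.0 and 206 CPM in CON VSMCs, and Ifitm3 had 1209 and 1369 CPM in CCI VSMCs, against 367 and 1931 CPM in CON VSMCs. Pericytes had the same lowest library, with 488 and 241 CPM of Isg15 in CCI, against 129 and 1208 CPM in CON. Of 25 tested genes of this list, 3 lay above without overlap and none below, against 11.1% of all genes above and 19.1% below. Of the cell cycle genes, Ccnd1 (cyclin D1) had 261 and 167 CPM in CCI VSMCs, against 57.9 and 318 CPM in CON VSMCs, while Ccnd2 (cyclin D2) had 471 and 462 CPM in CCI VSMCs, against 479 and 474 CPM in CON VSMCs. Ccnd1 was also higher in Rgs5-high than in Rgs5-low VSMCs, with a log2 ratio of 2.11 ± 0.38 over the 4 libraries.

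In CCI replicate 1, 76 barcodes met every condition of the VSMC gate but the limit of 20 UMIs on the neuronal genes, against 5 in CCI replicate 2 and 1 in each CON library. They held a median of 46.5 UMIs of Snap25, Uchl1 and Tubb3 and 6451 UMIs in all, and 26 of them held 20 to 29 of these neuronal UMIs. The VSMCs of that library held a median of 10 such UMIs, against 6 in CCI replicate 2, 8 in CON replicate 1 and 2 in CON replicate 2. What those barcodes hold was not tested.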
